A study of Mus musculus with 12 samples.

Results

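The atrial-type transcripts are 8 mRNAs that in the adult heart are found mainly in atrial muscle, in the conduction system or in both. They were taken by gene symbol from the count table of every library and comprise Myl4, Myl7, Mybphl, Sln, Kcnj3, Kcnj5, Gja5 and Bmp10, which is 8 of the 21493 genes listed. Each symbol matched exactly 1 row, and all 8 were protein-coding genes in the annotation. The choice used no measured value of this experiment as its rule, but it was made with earlier results of these data known. Of the 8, 6 passed the filter on low counts and could be tested, whereas Mybphl and Bmp10 did not.

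The experiment compared cardiomyocytes of 3-month-old mice with an intact desmin gene (Des+/+) with those of mice lacking desmin (Des-/-), the muscle-specific intermediate filament protein, either without exercise (non-swim) or after swimming exercise (swim). The 4 groups, Des+/+ non-swim, Des+/+ swim, Des-/- non-swim and Des-/- swim, each held 3 libraries of poly-A RNA. The cells were isolated from adult hearts by enzymatic digestion and, per the study's methods, cells of several mice were pooled for each library, so the spread between replicates is a spread between pools. The Des-/- mice lack the protein in every cell that would make it, skeletal and smooth muscle included, and the libraries therefore come from hearts that had lived without it throughout.

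The myosin of the heart carries an essential and a regulatory light chain. Atrial muscle makes Myl4 and Myl7, whereas the adult ventricle makes Myl3 and Myl2 in their place. Sarcolipin (Sln) is the small atrial inhibitor of the sarcoplasmic reticulum calcium pump, a role that phospholamban (Pln) has in the ventricle. Kcnj3 and Kcnj5 encode the GIRK1 and GIRK4 subunits of the potassium channel that vagal acetylcholine opens in the atrium and in the pacemaker, Gja5 encodes connexin40, the gap junction protein of atrial muscle, of the Purkinje system and of arterial endothelium, and Bmp10 is a secreted growth factor of the adult right atrium.

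The promoter of 3 of the genes is shown because the results turn on them: Kcnj3 and Kcnj5, the pair with the largest genotype difference without swimming among the 6 tested, and Myl7, whose libraries moved in opposite directions without and after swimming. The sequences are the 250 bases before the RefSeq transcription start on the GRCm38.p6 build, in the direction of the gene, and capitals mark a match to a motif of a cardiac transcription factor. Positions are counted back from the start site.
Myl7, chr11:5898783-5899032, minus strand: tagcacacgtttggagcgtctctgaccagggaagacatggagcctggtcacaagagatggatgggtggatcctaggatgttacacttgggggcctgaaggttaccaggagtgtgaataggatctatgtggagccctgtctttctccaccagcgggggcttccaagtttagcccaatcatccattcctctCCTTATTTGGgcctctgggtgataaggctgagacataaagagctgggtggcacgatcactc
Kcnj3, chr2:55435720-55435969, plus strand: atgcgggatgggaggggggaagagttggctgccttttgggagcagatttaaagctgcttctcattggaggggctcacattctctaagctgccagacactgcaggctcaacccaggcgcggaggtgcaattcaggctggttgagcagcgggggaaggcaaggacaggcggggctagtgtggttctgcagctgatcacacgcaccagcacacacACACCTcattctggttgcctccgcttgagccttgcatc
Kcnj5, chr9:32344345-32344594, minus strand: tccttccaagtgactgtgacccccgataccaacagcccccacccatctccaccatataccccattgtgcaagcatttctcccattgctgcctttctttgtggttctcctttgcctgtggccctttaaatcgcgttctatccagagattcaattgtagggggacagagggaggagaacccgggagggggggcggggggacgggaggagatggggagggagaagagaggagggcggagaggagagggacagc
Motifs of 5 kinds were searched on both strands: a GATA site (AGATAA), a T-box half-site (AGGTGT), a site of Nkx2-5 (AAGTGG), the MEF2 site and the CArG box of serum response factor. The Myl7 window held a CArG box that begins at position -61, as 1.47% of the 32851 promoters of the same length did. In the Kcnj3 window the T-box half-site lay on the other strand at position -38, a motif held by 11.8% of the promoters, and the Kcnj5 window held none of the motifs. Elsewhere, Mybphl had a GATA site at -141 and an Nkx2-5 site at -22, Bmp10 had GATA sites at -219 and -33, and Gja5 had an Nkx2-5 site at -62. Myl4 had an Nkx2-5 site at -111, but the start site listed for it is a distal one, so its sequence is not shown. The GATA and Nkx2-5 letters were found in 9.99% and 14.1% of all promoters, and the MEF2 site, held by 2.92%, was in none of these windows. A match describes the sequence only and does not show that a factor binds there.

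Libraries held between 4320819 and 12072443 reads in genes, and those of Des-/- swim were the shallowest (4320819 to 6521963). Levels are given as CPM, the counts of a gene relative to the TMM-scaled library total, and 3 counts, taken as the floor, corresponded to between 0.262 and 0.656 CPM on that scale. Of the reads in genes, in no gene or ambiguous between genes, 34.0 to 39.3% were in no gene in Des+/+ non-swim, 45.9 to 50.4% in Des+/+ swim, 34.2 to 52.3% in Des-/- non-swim and 57.2 to 64.5% in Des-/- swim. Des itself was at 973 to 3647 CPM in the 6 Des+/+ libraries and at 50.3 to 101 CPM in the 6 Des-/- libraries. All 8 cardiomyocyte markers (Myh6, Tnnt2, Tnni3, Actn2, Actc1, Ttn, Ryr2, Mybpc3) were detected in every group, but their summed level was 46135 to 74648 CPM in Des+/+ non-swim, 23627 to 39777 in Des+/+ swim, 4924 to 22590 in Des-/- non-swim and 12723 to 21317 in Des-/- swim. The 8 fibroblast markers summed to 3177 to 3682 CPM in Des+/+ non-swim, 2179 to 3190 in Des+/+ swim, 7960 to 39661 in Des-/- non-swim and 3638 to 13416 in Des-/- swim. In both Des-/- groups the upper value was that of replicate 3, which also had the highest macrophage markers (3862 CPM against at most 561 in the other 2 non-swim libraries, and 1157 against at most 280.0 after swimming). The macrophage markers were at 180 to 276 CPM in Des+/+ non-swim and 213 to 254 in Des+/+ swim. The erythrocyte markers were at 179 to 546 CPM in Des+/+ non-swim, below every library of Des+/+ swim (1391 to 2175) and Des-/- non-swim (1470 to 4580), and at 491 to 2919 in Des-/- swim. The part of these differences in the results below was not tested, and in bulk RNA fewer cells of a type and less RNA per cell cannot be told apart.

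The channel subunits Kcnj3 and Kcnj5 were the most abundant of the 8 in counts in Des+/+ non-swim, and both were several-fold lower without desmin. Kcnj3 was at 75.0, 81.6 and 54.5 CPM in the 3 Des+/+ non-swim libraries, at 32.2, 21.5 and 48.1 in Des+/+ swim, at 9.35, 15.6 and 2.27 in Des-/- non-swim and at 15.1, 9.40 and 8.01 in Des-/- swim. Every Des-/- library lay below every Des+/+ library, and the swim libraries of Des+/+ lay between the others. Kcnj5 was at 73.0, 112 and 71.5 CPM in Des+/+ non-swim, at 40.6, 23.1 and 56.6 in Des+/+ swim, at 10.9, 24.0 and 5.34 in Des-/- non-swim and at 14.5, 11.4 and 5.23 in Des-/- swim. The highest Des-/- non-swim library (24.0) was just above the lowest Des+/+ swim library (23.1).

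Without swimming, Kcnj3 fell by 2.97 on the log2 scale in Des-/- (SE 0.54, adjusted p = 0.00235, edgeR quasi-likelihood test with Benjamini-Hochberg adjustment) and the mean CPM was 12.9% of that in Des+/+. Kcnj5 changed by -2.68 (SE 0.52, adjusted p = 0.00348) to 15.7% of the Des+/+ mean. Both remained called in all 19 alternatives to this fit. After swimming the differences were smaller: Kcnj5 changed by -1.95 (SE 0.53, adjusted p = 0.0402), and Kcnj3 missed the threshold at -1.64 (SE 0.53, adjusted p = 0.0663, called in 4 of 19 alternatives). The Kcnj5 call after swimming was lost in 8 of the 12 fits without 1 library, with adjusted p up to 0.135. Those libraries were the 3 of Des-/- swim, replicates 1 and 3 of Des+/+ swim, replicates 1 and 3 of Des+/+ non-swim and replicate 1 of Des-/- non-swim.

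**Figure D1:**
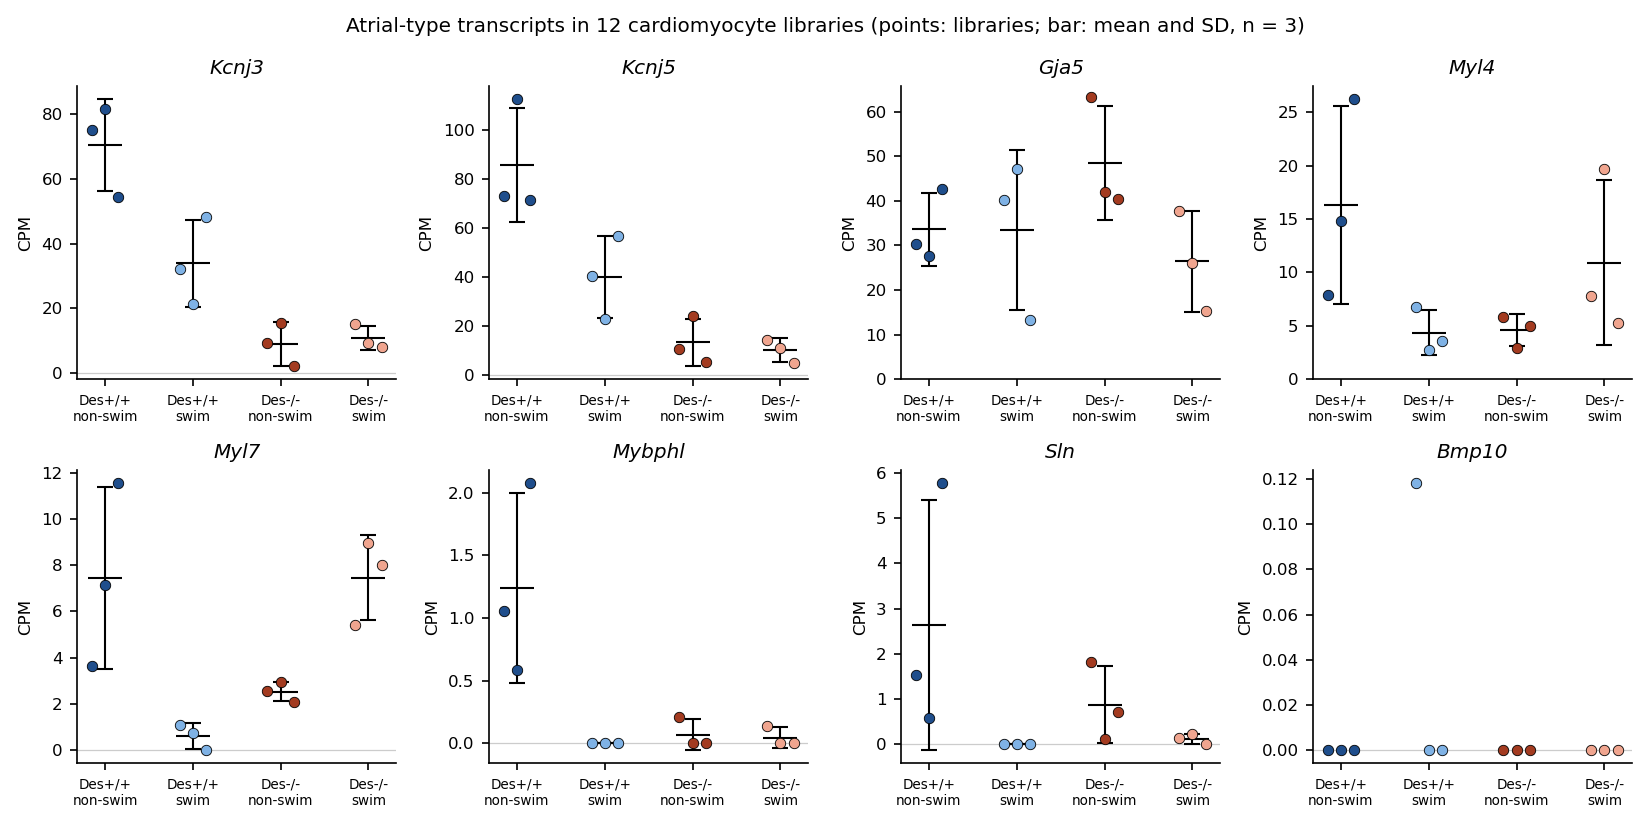
Level of each atrial-type transcript in CPM (vertical axis, a separate linear scale in each panel) in the 4 groups, with 1 point per library and, except for Bmp10, the mean and SD of the 3 libraries. Kcnj3 was at 21.5 CPM or above in all Des+/+ libraries and at 15.6 or below in all Des-/- libraries, Myl7 was near 0 in Des+/+ swim and at 5.40 to 8.97 CPM in Des-/- swim, and Bmp10 had 1 read in 1 library.

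GIRK1 and GIRK4 assemble into one channel, and the proportion of their mRNAs was compared within each library. Per kilobase of the principal transcript (5215 bases for Kcnj3, 4685 for Kcnj5), Kcnj3 stood at 65.2 to 92.3% of Kcnj5 in Des+/+ non-swim, 71.3 to 83.6% in Des+/+ swim, 38.3 to 76.8% in Des-/- non-swim and 74.3 to 137% in Des-/- swim. The proportions overlapped between all 4 groups, but the medians ran from 58.5% in Des-/- non-swim to 93.4% in Des-/- swim. Across the 12 libraries the deviations of the 2 genes from their group means had r = 0.90, a description over libraries that share depth and composition. Relative to the cardiomyocyte markers, the picture was less steep, a scale chosen after the levels were seen. Per 100000 reads of the 8 markers, Kcnj5 had 148, 151 and 158 reads in Des+/+ non-swim, 106, 108 and 110 in Des-/- non-swim and 41.1, 53.3 and 70.3 in Des-/- swim, so these 3 groups did not overlap. Des+/+ swim spread over them, with 97.8, 102 and 173. Kcnj3 had 109 to 162 reads on this scale in Des+/+ non-swim, 46.2 to 94.3 in Des-/- non-swim and 44.1 to 73.1 in Des-/- swim. Its Des+/+ swim libraries, at 81.1 to 147, overlapped those of Des-/- non-swim. The related channel Kcnj2 had 93.0 to 170 in Des+/+ non-swim and 114 to 233 in Des-/- non-swim. After swimming Kcnj2 had 93.7 to 173 in Des+/+ and 48.4 to 110 in Des-/-.

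**Figure D2:**
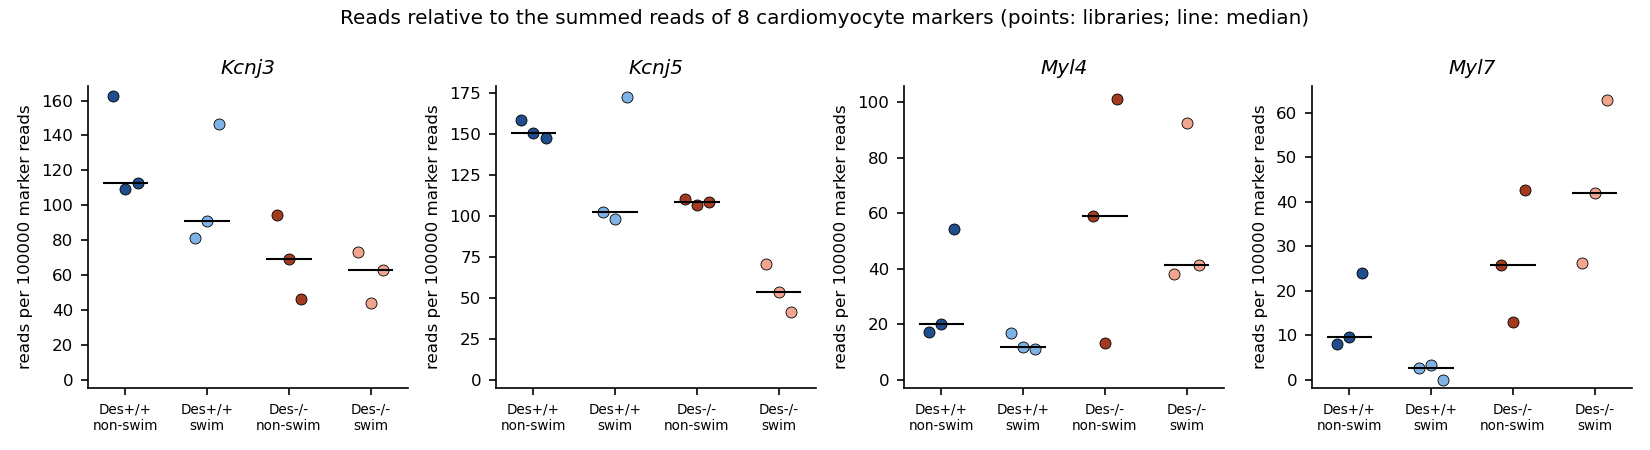
Reads of 4 atrial-type transcripts per 100000 summed reads of 8 cardiomyocyte markers in the same library (vertical axis, linear), with 1 point per library and a line at the group median. Kcnj5 fell into separate ranges in Des+/+ non-swim (148 to 158), Des-/- non-swim (106 to 110) and Des-/- swim (41.1 to 70.3), while the medians of Myl4 and Myl7 were higher in both Des-/- groups than in the Des+/+ groups.

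Upstream of the channel, the muscarinic receptor Chrm2, which couples acetylcholine to it, was lower in Des-/- without swimming (log2 change -2.20, SE 0.45, adjusted p = 0.00433), as was the adenosine receptor Adora1 (-1.24, SE 0.33, adjusted p = 0.0154). Gnb2, which encodes a G protein beta subunit, was slightly higher (0.38, SE 0.13, adjusted p = 0.0443). These were the 3 calls among the 11 tested genes of the muscarinic and adenosine pathway (1 higher, 2 lower, median log2 change -0.14 against 0.04 over all 13158 tested genes, of which 32.0% were called), and after swimming none was called, with a median of -0.17 against 0.02. Kcnj2, the inward rectifier that sets the resting potential of the ventricle, changed by -1.81 without swimming (SE 0.42, adjusted p = 0.00814). The log2 ratio of Kcnj3 to Kcnj2 reads was 0.14 ± 0.18 in Des+/+ non-swim and -1.33 ± 0.86 in Des-/- non-swim (SD, n = 3), and it was -0.19 ± 0.79 and -0.48 ± 0.84 after swimming. The genotype difference in this ratio was -0.88 over both conditions and did not pass the test (exact permutation test within swimming status, two-sided, p = 0.09, adjusted p = 0.154 over 12 ratio tests).

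Gja5 stood apart from the channel subunits, since no contrast called it. Its level was 30.4, 27.6 and 42.8 CPM in Des+/+ non-swim, 40.3, 47.2 and 13.2 in Des+/+ swim, 63.2, 42.0 and 40.4 in Des-/- non-swim and 37.8, 26.0 and 15.4 in Des-/- swim. The groups overlapped except that every Des-/- swim library was below every Des-/- non-swim library. The log2 change was 0.53 (SE 0.42) for genotype without swimming, -0.35 (SE 0.43) after it, 0.00 (SE 0.42) for swimming in Des+/+ and -0.88 (SE 0.43) in Des-/-, with adjusted p between 0.322 and 0.999. The 7 arterial endothelial markers, cells that also make connexin40, summed to 637 to 695 CPM in Des+/+ non-swim and 539 to 887 CPM in Des-/- non-swim, and none was called without swimming. After swimming these markers summed to 846 to 1108 CPM in Des+/+ and 597 to 811 CPM in Des-/-, without overlap. Of the 7, 1 was then called lower in Des-/-, Sema3g (-0.99, SE 0.22, adjusted p = 0.0203), where 5.57% of all tested genes were. The part of these cells in the Gja5 level was not tested. Gja1, the connexin of ventricular muscle, was lower in Des-/- without swimming (-1.27, SE 0.28, adjusted p = 0.00581). The log2 ratio of Gja5 to Gja1 reads accordingly was -4.01 ± 0.45 in Des+/+ non-swim and -2.12 ± 0.68 in Des-/- non-swim, and -3.02 ± 0.82 and -2.68 ± 0.48 after swimming (SD, n = 3). The genotype difference of 1.11 had an exact permutation p of 0.035 and an adjusted p of 0.108.

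Myl4 and Myl7 encode the atrial essential and regulatory light chains of myosin. Myl4 was at 7.90, 14.8 and 26.3 CPM in Des+/+ non-swim, at 6.73, 2.78 and 3.56 in Des+/+ swim, at 5.85, 2.94 and 4.99 in Des-/- non-swim and at 7.82, 19.7 and 5.23 in Des-/- swim. Both middle groups lay below every Des+/+ non-swim library, and Des-/- swim overlapped all of the others. Myl7 was at 3.65, 7.13 and 11.5 CPM in Des+/+ non-swim, at 1.06, 0.749 and 0 in Des+/+ swim, at 2.55, 2.94 and 2.10 in Des-/- non-swim and at 5.40, 8.97 and 8.01 in Des-/- swim. Its swim libraries lay below all non-swim libraries in Des+/+ and above all of them in Des-/-, a pattern of opposite, non-overlapping shifts that 2.03% of the tested genes had.

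After swimming, Myl7 was 12.3-fold higher in Des-/- than in Des+/+ by the means, a log2 change of 3.54 (SE 0.69, adjusted p = 0.0150). This call was kept in all 19 alternatives, which gave 3.02 to 4.14. The Des+/+ swim level rested on 9, 7 and 0 reads, whereas the Des-/- swim libraries held 38, 41 and 52 reads in shallower libraries. Without swimming the sign was the other way: Myl7 was -1.56 (SE 0.59, adjusted p = 0.0629) and missed the threshold, while Myl4 fell by 1.83 (SE 0.56, adjusted p = 0.0286). Myl7 was called here in 4 of 19 alternatives (adjusted p 0.0107 to 0.244). The Myl4 call was lost without replicate 2 or 3 of Des+/+ non-swim or replicate 2 or 3 of Des-/- non-swim (adjusted p 0.0600 to 0.127). Myl4 after swimming was 1.30 (SE 0.57, adjusted p = 0.150). Swimming in Des+/+ gave -3.55 for Myl7 (SE 0.68, adjusted p = 0.0589) and -1.91 for Myl4 (SE 0.57, adjusted p = 0.121). In Des-/- it gave 1.55 (SE 0.60, adjusted p = 0.250) and 1.23 (SE 0.57, adjusted p = 0.302).

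The interaction term, the difference of the swimming effect between Des-/- and Des+/+, was 5.10 for Myl7 (SE 0.91, unadjusted p = 1.3e-04 and adjusted p = 0.199, edgeR quasi-likelihood test over all 13158 genes) and 3.13 for Myl4 (SE 0.80, unadjusted p = 0.00226, adjusted p = 0.199). Neither passed, and 0% of all tested genes were called for this term, although 2148 had an unadjusted p under 0.05. DESeq2 called Myl4 (3.15, adjusted p = 0.0138), which was not called in the other 17 alternatives (adjusted p up to 0.442), and 299 genes in all. It gave Myl7 a log2 change of 5.13 but no adjusted p.

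Myl2 and Myl3 are the ventricular regulatory and essential light chains. Myl2 was at 4768 ± 1067 CPM in Des+/+ non-swim, 3017 ± 1028 in Des+/+ swim, 1258 ± 695 in Des-/- non-swim and 2073 ± 623 in Des-/- swim (SD, n = 3), and Myl3 had means of 4900, 2907, 1280 and 2145 CPM. Both fell without swimming in Des-/- (log2 change -1.92, SE 0.46, adjusted p = 0.00953 and -1.94, SE 0.43, adjusted p = 0.00667) and were not called after swimming (-0.54 and -0.44, SE 0.45 and 0.42). Per kilobase of the principal transcript, Myl7 stood at 0.156 to 0.325% of Myl2 in Des+/+ non-swim, 0 to 0.0513% in Des+/+ swim, 0.245 to 0.661% in Des-/- non-swim and 0.363 to 0.873% in Des-/- swim. The share in Des-/- swim lay above both Des+/+ groups in every library. For the essential chains, Myl4 stood at 0.215 to 0.546% of Myl3 in Des+/+ non-swim, 0.129 to 0.173% in Des+/+ swim, 0.156 to 0.951% in Des-/- non-swim and 0.311 to 0.788% in Des-/- swim.

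As a log2 ratio of reads in the same library, which does not depend on the scaling between libraries, Myl7 to Myl2 was -9.43 ± 0.53 in Des+/+ non-swim, -12.83 ± 2.07 in Des+/+ swim, -8.73 ± 0.80 in Des-/- non-swim and -8.09 ± 0.63 in Des-/- swim (SD, n = 3). The genotype difference was 2.72 over both conditions, made of 0.70 without and 4.74 after swimming. Its exact permutation p was 0.015 (two-sided, within swimming status, 400 arrangements, smallest possible p 0.005), and the adjusted p over 12 ratio tests was 0.108. The value of Des+/+ swim includes replicate 3 with 0 Myl7 reads, where the ratio of -15.20 rests on the 0.5 added to each count. For Myl4 to Myl3 the genotype difference was 0.99 (exact permutation p = 0.08, adjusted p = 0.154). Of the 12 ratio tests 0 had an adjusted p under 0.05 and 5 had an unadjusted p under it. Without replicate 2 of Des-/- non-swim, 5 ratio tests reached an adjusted p of 0.036, those of Myl7 to Myl2 (2.85) and Myl4 to Myl3 (1.32) for genotype among them.

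**Figure D3:**
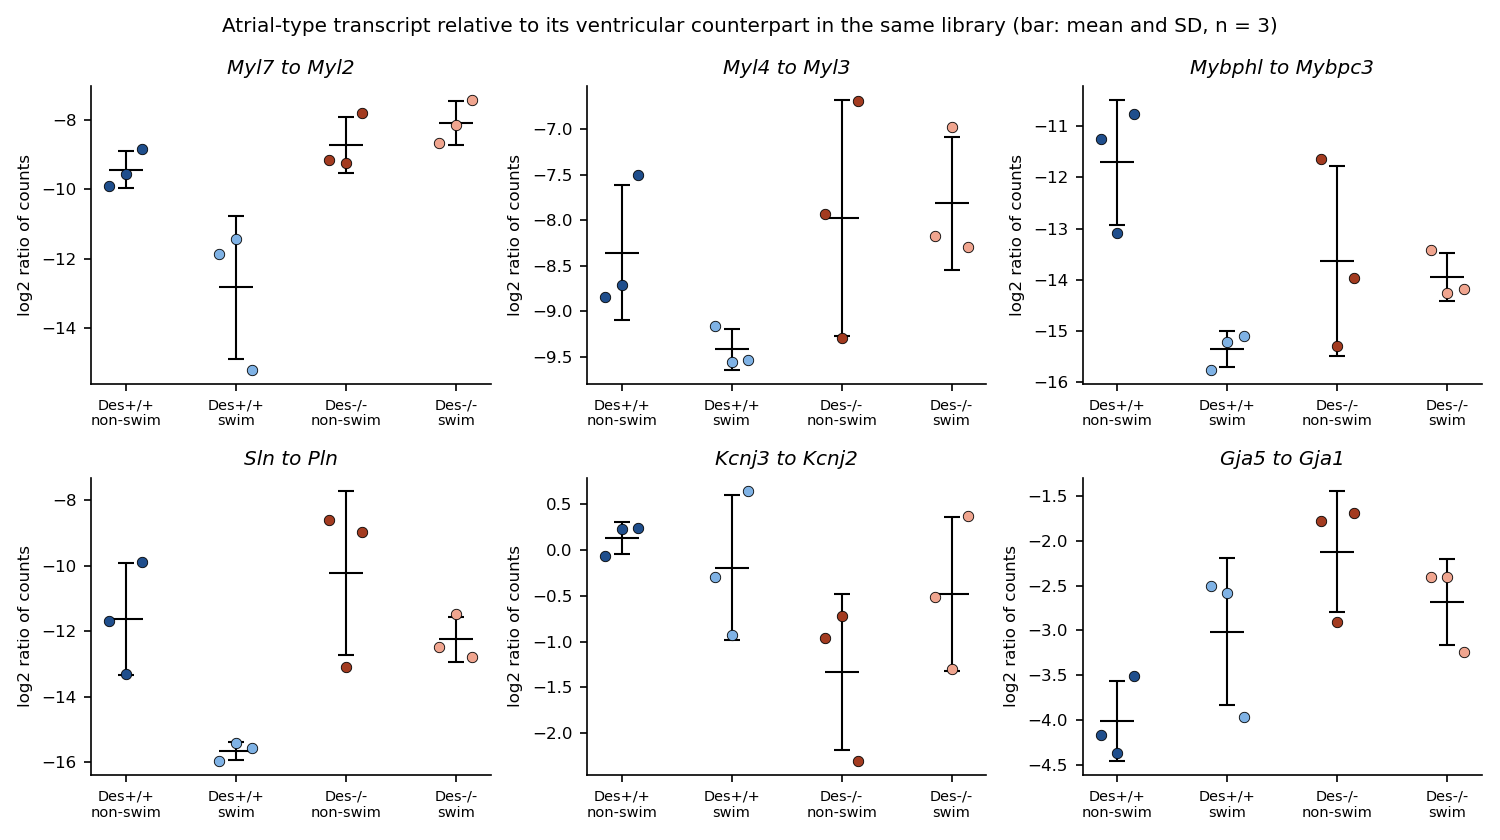
Log2 ratio of the reads of an atrial-type transcript to those of its ventricular counterpart in the same library (vertical axis, 0.5 added to each count), with 1 point per library and the mean and SD of the 3 libraries of a group. Myl7 to Myl2 was lowest in Des+/+ swim (mean -12.83) and highest in Des-/- swim (mean -8.09), and Gja5 to Gja1 was lowest in Des+/+ non-swim (mean -4.01).

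Myl7 and Myl4 belong to the same thick filament. In reads per length of the principal transcript they were of similar level in 3 of the 4 groups. Myl7 was at 70.3 to 76.8% of Myl4 per kilobase in Des+/+ non-swim, 67.3 to 160% in Des-/- non-swim and 72.8 to 244% in Des-/- swim, but at 0 to 43.0% in Des+/+ swim, below every library of the others. The transcript lengths used were 590 bases for Myl7 and 943 for Myl4. With all 4637 exonic bases of Myl4 the mean levels per kilobase were not similar in these 3 groups. They were 3.52 CPM for Myl4 and 12.6 for Myl7 in Des+/+ non-swim, 0.990 and 4.29 in Des-/- non-swim, and 2.35 and 12.6 in Des-/- swim. In Des+/+ swim they were 0.940 and 1.02. Per 100000 reads of the cardiomyocyte markers, the medians of Myl4 were 19.9 in Des+/+ non-swim, 11.8 in Des+/+ swim, 58.9 in Des-/- non-swim and 41.1 in Des-/- swim, and those of Myl7 were 9.55, 2.67, 25.7 and 42.1. On this scale the order of the genotypes without swimming turned round for both genes, with overlapping libraries (Myl4 17.1 to 54.3 against 13.0 to 101, Myl7 7.92 to 23.9 against 13.0 to 42.6), whereas for Kcnj3 and Kcnj5 it did not. Myl7 in Des-/- swim (26.2 to 62.9) stayed above every Des+/+ library.

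**Figure D4:**
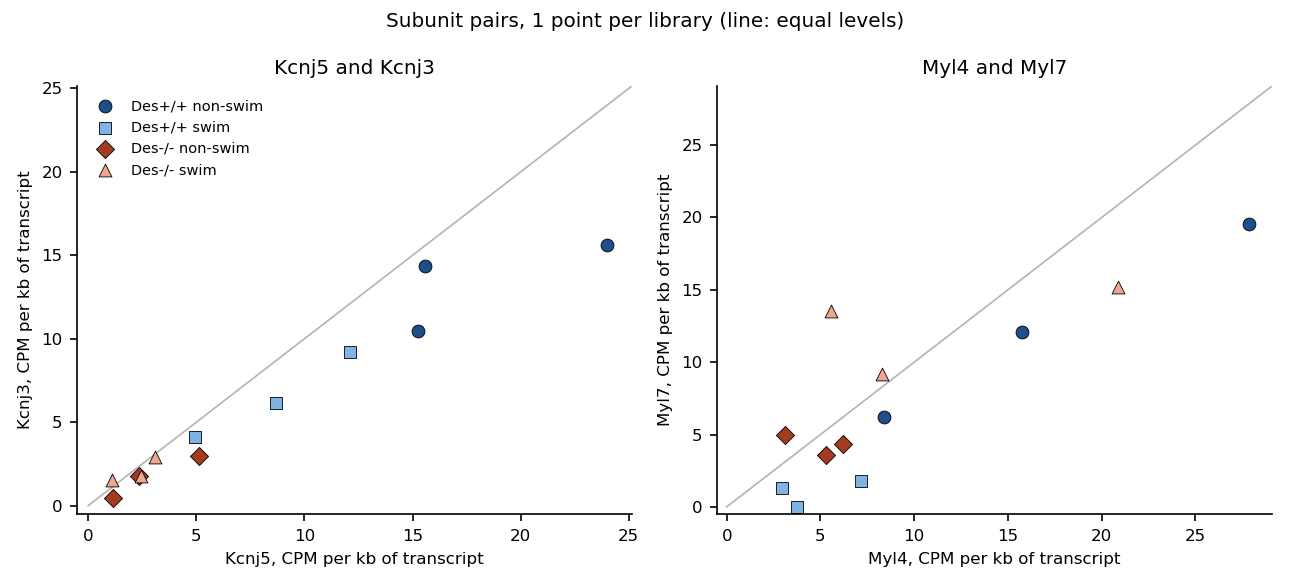
Level of Kcnj3 against Kcnj5 (left) and of Myl7 against Myl4 (right), both in CPM per kilobase of the principal transcript on linear axes, with 1 point per library and a line of equal levels. The channel subunits rose together from the Des-/- libraries to Des+/+ non-swim, while the Des+/+ swim libraries had little Myl7 (0 to 1.80 CPM per kilobase) for their Myl4 (2.95 to 7.14).

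Mybphl encodes a myosin-binding protein of the atrial thick filament and of the conduction system, and it was almost confined to Des+/+ non-swim, with 9, 5 and 23 reads (1.06, 0.584 and 2.08 CPM) in the 3 libraries. Des+/+ swim held no read in any library, Des-/- non-swim held 2 reads in replicate 1 and none in the others, and Des-/- swim held 1 read in replicate 1. Taking 3 counts over the group as the floor, the level in Des+/+ swim was at least 10.9-fold lower than in Des+/+ non-swim, and at least 6.80-fold lower without replicate 3 of Des+/+ non-swim. The gene was too low for the main test. In the fit with no filter on low counts the genotype difference without swimming was -3.88 (adjusted p = 0.0261, edgeR quasi-likelihood test), and swimming in Des+/+ had an adjusted p of 0.0903. Its ventricular relative Mybpc3 was at 4016 ± 1461 CPM in Des+/+ non-swim and 1277 ± 875 in Des-/- non-swim (SD, n = 3), a change of -1.65 (SE 0.45, adjusted p = 0.0169).

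Sln, the SERCA inhibitor, held 13, 5 and 64 reads in Des+/+ non-swim (1.53, 0.584 and 5.77 CPM), none in the 3 Des+/+ swim libraries, 17, 1 and 8 in Des-/- non-swim (1.81, 0.113 and 0.700 CPM) and 1, 1 and 0 in Des-/- swim. In Des+/+ it was at least 24.1-fold lower after swimming, with the floor of 3 counts over the group, or at least 8.75-fold without replicate 3 of Des+/+ non-swim, and the edgeR adjusted p of this contrast was 0.0894. Genotype without swimming gave -1.59 (SE 0.94, adjusted p = 0.224), which was -0.27 without replicate 3 of Des+/+ non-swim and -2.61 without replicate 1 of Des-/- non-swim, with no call in any of 19 alternatives. Both swim groups were at or under the floor, so no fold between them is given. Sln and Myl7, both products of atrial muscle, did not keep a fixed proportion: there were 82 Sln reads beside 220 of Myl7 in Des+/+ non-swim and 26 beside 74 in Des-/- non-swim, but 2 beside 131 in Des-/- swim. In single libraries Sln ranged from 3.85 to 70.8 reads per 100 Myl7 reads without swimming and from 0 to 2.63 in Des-/- swim. The nearest values, 3.85 and 2.63, each rest on 1 Sln read, so single libraries do not separate these groups.

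Pln, the ventricular counterpart of Sln, was at 5777 ± 699 CPM in Des+/+ non-swim, 3214 ± 770 in Des+/+ swim, 855 ± 568 in Des-/- non-swim and 896 ± 338 in Des-/- swim (SD, n = 3). It fell in Des-/- without swimming (-2.76, SE 0.48, adjusted p = 0.00191) and after it (-1.84, SE 0.46, adjusted p = 0.0302). Of the calcium pump Atp2a2 and its partners, all 4 tested genes were lower without swimming (median log2 change -2.30, where 18.0% of all tested genes were called lower), Pln and the calcium release channel Ryr2 (-2.27, SE 0.45, adjusted p = 0.00367) with the smallest p, and after swimming 1 of 4 was, Pln. The log2 ratio of Sln to Pln reads differed by -3.03 with swimming (exact permutation p = 0.02, adjusted p = 0.108) and by 2.42 with genotype (p = 0.045, adjusted p = 0.108, exact permutation test). The genotype difference was made of 1.42 without and 3.42 after swimming. Each swim library held 0 or 1 Sln read, so its ratio rests on the 0.5 added to each count. The size of both differences depends on it, and the value after swimming is no measure of Sln between genotypes. Without replicate 2 of Des-/- non-swim the swimming and genotype differences became -3.75 and 3.14, each with an adjusted p of 0.036 in the same test. No other fit gave either an adjusted p under 0.05, and the limit of the added count holds here too.

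Bmp10 had 1 read in replicate 1 of Des+/+ swim and none in the other 11 libraries, so no level could be compared. Its receptors and effectors were nonetheless present. Of the 14 tested, Bmpr1a, a type I receptor, was lower (-0.63, SE 0.17, adjusted p = 0.0166) and Id3, a target gene of BMP signalling, was higher (0.60, SE 0.18, adjusted p = 0.0270) in Des-/- without swimming, with a median of -0.02, so 2 of 14 were called where 32.0% of all tested genes were. After swimming the type II receptor Bmpr2 was lower (-0.55, SE 0.15, adjusted p = 0.0385), with a median of -0.19.

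In summed reads the 8 transcripts made up 192 to 245 CPM in Des+/+ non-swim, 95.3 to 122 in Des+/+ swim, 55.8 to 94.0 in Des-/- non-swim and 41.9 to 80.9 in Des-/- swim, most of it from Kcnj3, Kcnj5 and Gja5. Per kilobase of the principal transcript the order in Des+/+ non-swim was Kcnj5 (18.3 CPM per kilobase), Myl4 (17.3), Kcnj3 (13.5), Myl7 (12.6), Gja5 (10.8), Sln (2.00) and Mybphl (0.972). Neighbours in this order overlapped in single libraries among the first 5 and between the last 2, and the first 5 lay above the last 2. In Des-/- non-swim Gja5 led (15.6) and lay above every other gene in all libraries, followed by Myl4 (4.87), Myl7 (4.29), Kcnj5 (2.87) and Kcnj3 (1.74), which overlapped between neighbours. In Des-/- swim Myl7 (12.6), Myl4 (11.6) and Gja5 (8.50) overlapped, and all 3 lay above Kcnj5 (2.21) and Kcnj3 (2.08). In Des+/+ swim the order was Gja5 (10.8), Kcnj5 (8.56), Kcnj3 (6.51), Myl4 (4.62) and Myl7 (1.02), with overlap between neighbours among the first 4 and Myl7 below them. Counting all exons of the gene as its length lowered Myl4 to 3.52 and Gja5 to 5.85 in Des+/+ non-swim, which put Myl4 below Gja5.

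Without swimming 3 of the 6 tested transcripts were called for genotype, Kcnj3, Kcnj5 and Myl4, all lower in Des-/-. In this contrast 32.0% of all 13158 tested genes were called and 18.0% were called lower. In 5 of the 8 transcripts (4 of the 6 tested) every Des-/- library lay below every Des+/+ library, and 47.9% of the tested genes did not overlap in either direction. After swimming 2 of 6 were called, Myl7 higher and Kcnj5 lower, where 10.6% of all genes were called, 5.01% higher and 5.57% lower. Here 3 of 6 did not overlap, against 35.9% of the tested genes. Without replicate 3 of Des-/- non-swim, the library with the most fibroblast and macrophage RNA, Kcnj3 and Kcnj5 were called without swimming, where 2805 genes were called in all against 4210, and Myl7, Kcnj3 and Kcnj5 after it, where 2142 were against 1392. The count over all genes without swimming was also lower, at 2612, without replicate 2 of Des+/+ non-swim. After swimming it was 561, 817 and 74 without replicates 1, 2 and 3 of Des+/+ swim and 505, 637 and 664 without replicates 1, 2 and 3 of Des-/- swim.

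For swimming itself 0 of the 6 were called in either genotype by edgeR, where 0.0912% of all genes were called in Des+/+ and 0.0228% in Des-/-. At an unadjusted p under 0.05 there were 4 of 6 in Des+/+ (Myl4, Myl7, Sln, Kcnj5), where 20.5% of all tested genes were, and 1 of 6 in Des-/- (Myl7), where 16.7% were. DESeq2 called none in Des-/-. In Des+/+ 5 of the 6 tested lay below the non-swim libraries without overlap, Myl4, Myl7, Sln, Kcnj3 and Kcnj5, while 31.3% of the tested genes did not overlap in either direction. In Des-/- Myl7 lay above and Gja5 below, against 19.4% of the tested genes. Sln reached 10 reads only in non-swim libraries and passed the filter on low counts through them. Its place in both Des+/+ counts is therefore not support for a fall with swimming. Myl7 was called for swimming in Des+/+ in 4 of 19 alternatives, by DESeq2, with no filter on low counts (adjusted p = 0.0435), in a fit of the 6 Des+/+ libraries alone (adjusted p = 0.0454) and without replicate 3 of Des-/- non-swim (adjusted p = 0.0380), and the adjusted p ranged up to 0.261. DESeq2 also called Myl4 there (adjusted p = 0.0230). The swimming contrast in Des+/+ and the genotype contrast without swimming share the Des+/+ non-swim libraries, which held the highest mean of 5 of the 8 transcripts, all except Myl7, Gja5 and Bmp10.

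**Figure D5:**
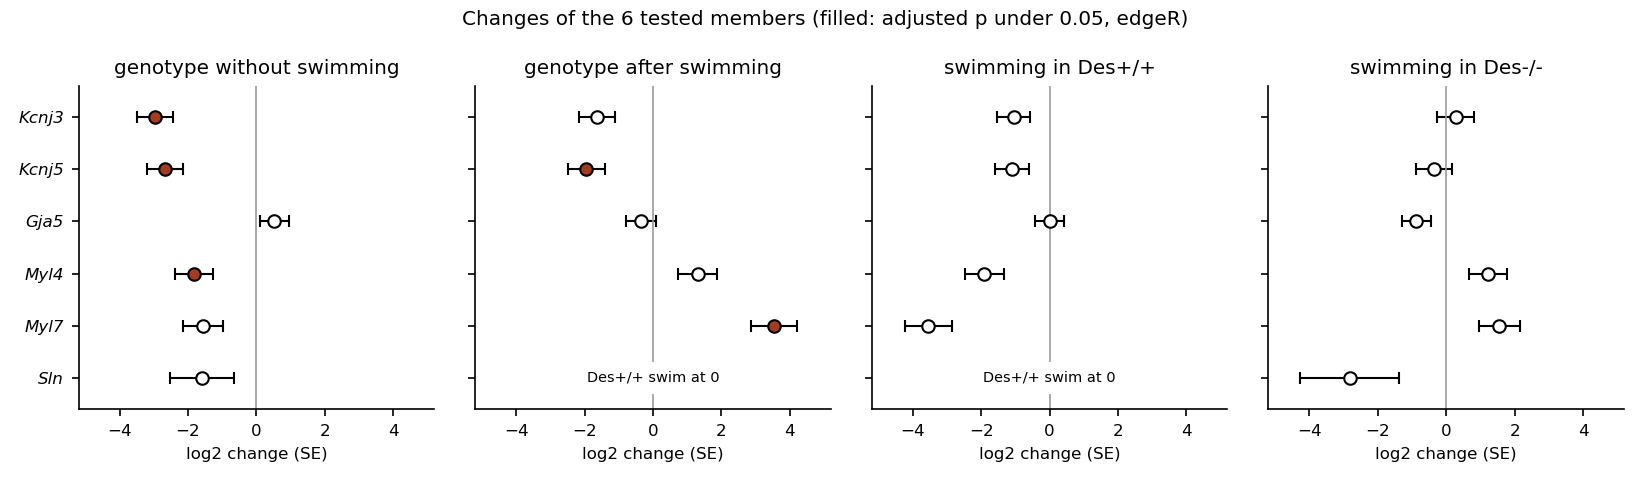
Log2 change with its SE (horizontal axis) of the 6 tested atrial-type transcripts in 4 contrasts, Des-/- relative to Des+/+ or swim relative to non-swim. Filled points had an adjusted p under 0.05 in edgeR's quasi-likelihood test; Sln is not drawn where Des+/+ swim held no read. Kcnj3 and Kcnj5 were negative for genotype in both conditions, and Myl7 was -1.56 without and 3.54 after swimming.

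Other genes enriched in atrial muscle did not move as 1 group. Of 11 tested, 4 were called without swimming, where 32.0% of all tested genes were. Kcnk3, a background potassium channel, was lower without swimming (-2.18, SE 0.41, adjusted p = 0.00288), as were the transcription factor Tbx5 (-1.87, SE 0.59, adjusted p = 0.0319) and Pam, a peptide-processing enzyme of atrial granules (-0.64, SE 0.21, adjusted p = 0.0403). Dkk3, a secreted protein of the Dickkopf family, was higher both without (2.17, SE 0.50, adjusted p = 0.00779) and after swimming (1.78, SE 0.49, adjusted p = 0.0418). The list's median log2 change was -0.61 without and -0.31 after swimming, against 0.04 and 0.02 over all tested genes. The atrial hormone gene Nppa was at 456 ± 271 CPM in Des+/+ non-swim, 206 ± 80.6 in Des+/+ swim, 908 ± 433 in Des-/- non-swim and 680 ± 657 in Des-/- swim (SD, n = 3), and it was not called for genotype (0.99, SE 0.66, and 1.72, SE 0.67, adjusted p = 0.269 and 0.111).

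Genes of the pacemaker and conduction system, where Gja5, Mybphl and the channel subunits are also made, had 4 lower and 1 higher of 12 tested without swimming and none after it, beside 32.0% and 10.6% of all tested genes. Among those lower was the calcium channel Cacna1g (-1.84, SE 0.38, adjusted p = 0.00484), and the transcription factor Tbx18 was higher (0.92, SE 0.20, adjusted p = 0.00635). Of the 8 ventricular genes 7 were lower without swimming (median -1.86), Pln and Gja1 first, and only Pln after it (median -0.51). Of 19 tested relatives in the light chain, myosin-binding protein, connexin and inward rectifier families, 10 were lower and 1 higher without swimming, where 18.0% of all tested genes were called lower, with Myl1 (-4.39, SE 0.59, adjusted p = 9.03e-04) and the connexin Gja3 (-2.85, SE 0.44, adjusted p = 0.00122) first and the non-muscle chain Myl6 higher (0.76, SE 0.21, adjusted p = 0.0176). After swimming 2 of the 19 were called lower, Myl1 (-3.47, SE 0.58, adjusted p = 0.0117) and Kcnj14 (-4.84, SE 1.04, adjusted p = 0.0194), where 5.57% of all tested genes were. All 8 cardiomyocyte markers were lower without swimming (median -2.13) and none was called after it (median -0.80), and the fibroblast and macrophage markers were higher in 8 of 8 each without swimming.

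By the deviations of log2 CPM from the 4 group means over 12 libraries, the genes most like Myl7 among 12153 compared were Cog8 (r = 0.92), Rfx1 (0.88), Capn15 (0.88), Fntb (0.85) and Cdc5l (0.84). The atrial-type transcripts themselves were less like it, Gja5 at 0.63, Myl4 at 0.45, Sln at 0.15, Kcnj5 at -0.20 and Kcnj3 at -0.24. These are descriptions over libraries of different depth, in which Myl7 rested on few reads.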

How the data were processed

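Poly-A RNA of isolated adult cardiomyocytes was measured in 12 libraries, 3 in each of 4 groups taken from the sample labels. Per-gene read counts were deposited without normalisation; the authors made them with HISAT2 2.2.1, SAMtools 1.13 and HTSeq in reverse-strand mode on GRCm38. The kit is unstranded by the labels, directional by the study's methods. Myl4, Mybphl, Kcnj3 and Gja5 overlap genes on the opposite strand. The 8 transcripts and all gene lists were chosen with earlier results of these data known.

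Counts were analysed with edgeR 4.0.16 in R 4.3.3. The default filterByExpr filter left 13158 of 21493 genes. Libraries were scaled by TMM and 1 model of 4 group means was fitted (8 residual degrees of freedom), with quasi-likelihood tests and Benjamini-Hochberg adjustment over all tested genes; adjusted p under 0.05 was a call, and the common coefficient of variation was 0.271. In data simulated for genotype without swimming (13052 genes), 33 of 100 genes changed by 1 on the log2 scale and 74 of 100 changed by 2 were called. Reads per library ranged from 4320819 to 12072443; bounds and floors cover counting error only. Positions and lengths came from GENCODE M21, the length being that of the longest principal transcript, and promoters from RefSeq, which gave no entry used here for Sln.

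Ratios of reads to the ventricular counterpart, with 0.5 added, were compared by exact permutation tests. Alternatives were RLE and upper-quartile scaling, library totals, no filter, DESeq2 1.42.0, a replicate block, the 6 compared libraries alone and leaving out each library. All 8 transcripts are described; of each list, all called genes are named where there were at most 4, otherwise the 2 with the smallest p in each direction. 1 result that this rule selects is not reported here. Same-numbered libraries deviated together only between the 2 Des-/- groups (r = 0.32 to 0.60 over genes). The main fit and the ratio tests did not use such a pairing, so their p-values treat these libraries as independent. The replicate block applied the numbers in every group, Des+/+ included.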

Additional observations from a re-analysis of the deposited data

Results flagged for a closer look

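Myl7 stood out because its libraries moved in opposite directions in different groups. In Des+/+ every swim library (0 to 1.06 CPM) was below every non-swim library (3.65 to 11.5 CPM), and in Des-/- every swim library (5.40 to 8.97 CPM) was above every non-swim library (2.10 to 2.94 CPM). The same values, read by genotype, put every Des-/- library below Des+/+ without swimming and above it after swimming. The test of this difference, the interaction term of edgeR's quasi-likelihood model, gave 5.10 on the log2 scale (SE 0.91) and an adjusted p of 0.199, so it did not pass the threshold over all genes. The cause was not tested.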

How the results depend on the processing

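Kcnj3 and Kcnj5 without swimming and Myl7 after swimming kept their direction and call in all 19 alternatives each. The number of called transcripts for genotype after swimming ranged from 1 to 3 when 1 library was left out, and without swimming from 2 to 4. For swimming in Des+/+ it was 0 in the main fit, 1 with no filter on low counts, 2 by DESeq2, 1 in the fit of the 6 compared libraries and 0 to 1 when 1 library was left out. For the interaction it was 0, but 1 by DESeq2.

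Direction turned for values near 0. Gja5 with swimming in Des+/+ went to -0.15 with the replicate block and from -0.32 to 0.38 without single libraries, Kcnj3 with swimming in Des-/- from -0.18 to 0.93, and Kcnj5 there from -0.74 to 0.36. The replicate block, which pairs same-numbered libraries, changed no call of these transcripts.

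Among the ratios, Mybphl to Mybpc3 for genotype was -0.26, 0.59 with 5 added to each count and -0.76 to 0.16 without single libraries. With 1 library left out, the genotype difference ranged from 2.13 to 3.07 for Myl7 to Myl2, from 0.67 to 1.32 for Myl4 to Myl3 and from 2.00 to 3.14 for Sln to Pln, and the swimming difference from -3.75 to -2.59 for Sln to Pln and from -2.39 to -1.48 for Mybphl to Mybpc3. These 5 had an adjusted p under 0.05 only in the fits without replicate 2 of Des-/- non-swim, and the cause was not tested. The ratios of Sln and Mybphl rest on the count added, since their swim libraries held 0 or 1 read each. Lengths over all exons, chosen after seeing the data, changed only the levels per kilobase, and with them the likeness in level of Myl4 and Myl7. The bounds of Sln and Mybphl without 1 library were also chosen after seeing the data. With 0 to 64 reads per library, Sln, Mybphl and Bmp10 are limited by depth.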
